A study of Mus musculus with 12 samples.

Results

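Exonic sites away from promoters are the open-chromatin peaks that lie more than 1000 bp from every annotated transcription start site (TSS) and overlap an annotated exon by at least 1 base. They were picked by position alone from the consensus peak set that the authors built from BGI-derived data of both cell types, with the GENCODE M21 annotation of mouse build GRCm38. Of 91354 peaks, 6642 (7.27%) met the rule. Of these, 4022 overlapped coding sequence and are called coding sites here. A further 68 overlapped a 5′ untranslated region (UTR) and 1228 a 3′ UTR without touching coding sequence, and 1324 overlapped only exons of noncoding genes or noncoding transcripts. The remaining peaks were 29808 promoter peaks within 1000 bp of a TSS, 54893 distal peaks outside exons, and 11 peaks on scaffolds that carry no annotated TSS.

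The samples were mouse embryonic fibroblasts (MEFs), the mesenchymal cells grown out of embryos, and mouse embryonic stem cells (mESCs), the pluripotent cells of the early embryo kept in culture, all of C57/Bl6 background. MEFs were sorted as THY1+ cells and mESCs as THY1-/SSEA1+/EPCAM+ cells. OMNI-ATAC-seq libraries were made from 3 samples of each cell type (libraries 1, 2 and 4 for MEFs and 1, 3 and 5 for mESCs). Each of the 6 libraries was read on the BGI DNBSEQ-G400 and on the Illumina HiSeqX10, which gave 4 groups of 3 samples. Age, sex and passage of the cells are not given in the sources used here, and the cell types also differed in culture and in sort gate, which cannot be told apart from cell identity.

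In ATAC-seq the Tn5 transposase inserts adapters into DNA that is not wrapped on nucleosomes, so a peak marks a stretch that was accessible in the cells sampled. Most accessible DNA lies at promoters, introns and intergenic enhancers, whereas exons are GC-rich and tend to be occupied by nucleosomes. Some exons nonetheless hold binding sites for transcription factors, so the same bases can encode protein and be bound by regulators. AP-1 factors (FOS and JUN dimers) and TEAD factors are known for their role at fibroblast enhancers, POU5F1, SOX2, ESRRB and KLF factors for theirs in pluripotent cells, and CTCF for binding many of its sites in most cell types.

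Sequence windows of 30 bases show where such factors could read exonic sites. The letters searched on both strands, in a window of about 500 bases around each peak centre, were TGANTCA (AP-1), CCANNAGNNGGC (CTCF), ATGCAAAT (the octamer read by POU5F1), CATTGTT (SOX), TCAAGGTCA (ESRRB and NR5A2), GGGNGTGGC (KLF), ACATTCC (TEAD) and TGTGGTT (RUNX), where N is any base. Some of these overlap each other in places, and a match describes letters only. The windows below come from the GRCm38 genome, are written 5′ to 3′ on the strand named, and carry the match in capitals.

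First come sites that were higher in MEFs and held an AP-1 or TEAD match. The Nuak1 window is chr10:84409406-84409435 (+ strand), with its match outside exons, 41 bp from the peak centre. The Adamts16 window is chr13:70779465-70779494 (+), outside exons and 67 bp from the centre. The Wwtr1 match lies inside a coding exon, at chr3:57501795-57501824 (+), and the Slc39a13 match inside a 3′ UTR, at chr2:91062004-91062033 (+).
Nuak1 AP-1: gagatgttttaTGACTCAgatgagctgccc
Adamts16 AP-1: aaatggttttaTGAATCAtagtgtactgag
Wwtr1 AP-1: ggaggttcacaTGATTCAgaggctgattca
Slc39a13 TEAD: tcttccagttcACATTCCtgagcactgaca

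Next come sites that were higher in mESCs and held a match for a pluripotency factor. The Npcd match (chr15:79792802-79792831, - strand) lies inside a coding exon. The Ildr1 window (chr16:36708163-36708192, -) and the Etv5 window (chr16:22413052-22413081, +) hold their matches outside exons, 52 and 86 bp from the peak centre.
Npcd ESRRB: ccctgatgcctTCAAGGTCAgcatccccat
Ildr1 octamer: taataaaagccATGCAAATgaacaaaagct
Etv5 ESRRB: ctcttacagcTCAAGGTCAagaaaacccgc

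The last set shows a CTCF match in a coding exon that did not differ detectably between the cell types (Lpar5, chr6:125082057-125082086, -), and matches that ran against the grouping above. The CTCF match in the coding exon of Plagl1 (chr10:13127498-13127527, -) belongs to a site that was higher in mESCs. The AP-1 match at Def8 (chr8:123454066-123454095, +) belongs to one of the sites most strongly higher in mESCs. The octamer match in the coding exon of Adamts16 (chr13:70779569-70779598, -) belongs to a site that was higher in MEFs.
Lpar5 CTCF: tgagattggCCAGCAGGAGGCgcacggtct
Plagl1 CTCF: ctgtgtggaCCACCAGGTGGCgacgcacat
Def8 AP-1: ctaagggctggTGATTCActacaattctgt
Adamts16 octamer: acagttatacgATGCAAATacccaatgcaa

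The libraries held between 15860985 and 21831840 reads in peaks, with more in MEFs, which the authors had thinned to a greater depth than mESCs. Levels are given as counts per 1000000 reads in peaks (CPM), and all peaks are listed 502 bp wide, so levels of different sites are on one length. At promoters, 8 of 8 mESC marker genes were higher in mESCs (log2 fold change 1.66 to 6.12) and 7 of 8 MEF marker genes were higher in MEFs, with Snai2 at 0.01 and not called. Of the markers of other cells, 1 of 4 endothelial, 1 of 4 blood, 2 of 4 neural, 1 of 3 muscle, 4 of 4 endoderm and 0 of 3 epithelial genes had a promoter peak. The endoderm genes were 3 higher and 1 lower in mESCs, and the neural genes Neurod1 and Pax6 were at 2.65 and -0.39. The muscle gene Myod1 was at 1.70, and the blood gene, Csf1r, was lower at -2.97. The endothelial gene, Pecam1, was at -0.28 and not called. The part of other cells in the results below was not tested.

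The first question was whether exonic sites differ in accessibility between the cell types. They did, and mainly in one direction. Each peak was tested with edgeR's quasi-likelihood test on the whole set of 91354 peaks, none of which was removed by the filter on low counts, and was called at a Benjamini-Hochberg adjusted p under 0.05. In BGI-derived data 3774 exonic sites (56.8%) were higher in mESCs and 1940 (29.2%) were lower. Over all peaks, 40.9% were higher and 43.2% were lower. The median log2 fold change (mESC over MEF) was 0.82 for exonic sites and -0.08 for all peaks. In Illumina-derived data 3817 exonic sites (57.5%) were higher and 1880 (28.3%) lower, beside 41.2% and 43.4% of all peaks. With scaling to the thinned depth in place of edgeR's TMM factors, the median of all peaks rose from -0.08 to 0.06 and that of exonic sites from 0.82 to 0.96 in BGI-derived data; both medians moved up together. Because the peak set joins peaks found in either cell type, a site that is open in one cell type had to differ in order to be listed from that cell type alone, and the counts are read beside the background for that reason.

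Coding sites carried this shift. Of 4022 coding sites, 2518 (62.6%) were higher in mESCs and 934 (23.2%) were higher in MEFs in BGI-derived data, with a median log2 fold change of 1.14. In Illumina-derived data the shares were 63.3% and 22.3% and the median was 1.16. The 3′ UTR sites followed at a smaller size, with 648 of 1228 (52.8%) higher in mESCs, 392 (31.9%) higher in MEFs and a median of 0.58. The 68 sites in 5′ UTRs were split, with 31 higher in mESCs, 29 higher in MEFs and a median of 0.12. Taken as one class, the 1296 untranslated sites were 52.4% higher and 32.5% lower in mESCs. Noncoding exons did not show the shift: 577 of 1324 (43.6%) were higher in mESCs, 585 (44.2%) were higher in MEFs, and the median was -0.05. Distal peaks outside exons lay close to the noncoding exons, at 44.2% and 46.1% with a median of -0.11. Promoter peaks were 31.3% higher and 41.0% lower.

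**Figure D1:**
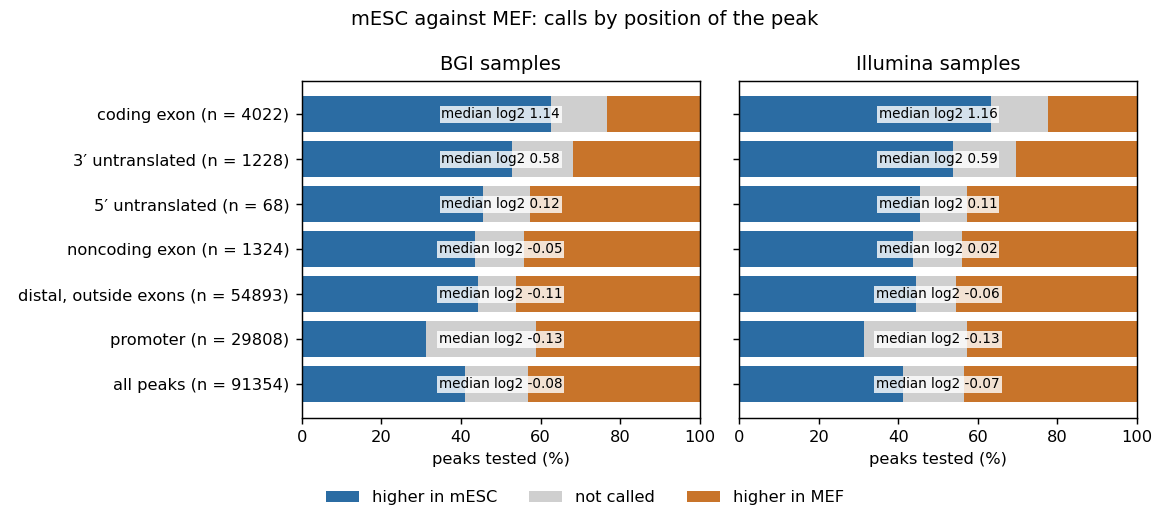
Share of peaks (x axis, percent of peaks tested) called higher in mESCs (blue), not called (grey) and called higher in MEFs (orange) in each class of peak (y axis), for BGI (left) and Illumina samples (right), with the median log2 fold change written in each bar. The blue part is widest for coding exons, at 62.6% and 63.3%, and close to the distal share of 44.2% for noncoding exons.

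Both platforms called mostly the same sites. Of the 6642 exonic sites, 5546 were called in the same direction on both, 0 in opposite directions, 168 on BGI alone, 151 on Illumina alone and 777 on neither. The share called alike, 5546 of 6642 (83.5%), was close to the 81.7% of all peaks, of which 0 were called in opposite directions. The platforms read the same 6 libraries, so this count describes the instruments and is no replication in new cells. Differences of at least 4-fold on both platforms were seen at 1431 coding sites higher in mESCs and 441 higher in MEFs, or 35.6% and 11.0%, beside 23.1% and 21.5% of all peaks. At noncoding exons the corresponding counts were 351 and 382. In BGI-derived data all 3 mESC samples lay above all 3 MEF samples at 2605 coding sites (64.8%) and below them at 925 (23.0%), beside 42.9% and 42.2% of all peaks.

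The median coding site stood at 4.16 CPM in MEFs and 8.20 CPM in mESCs in BGI-derived data. Noncoding exons, at 6.31 and 6.57 CPM, differed little in their medians. Thus the coding sites were below the distal median of 6.02 CPM in MEFs and above the distal median of 6.04 CPM in mESCs. In these bulk samples, fewer cells with an open site and less access per cell cannot be told apart. By the authors' own BGI peak lists, 2250 coding sites (55.9%) matched a reproducible mESC peak only, 769 (19.1%) a MEF peak only, and 1003 (24.9%) both. A match meant an overlap of at least 50%, and every site matched because the set was built from BGI-derived peaks. Among all peaks the shares were 36.4%, 32.8% and 30.8%. On the Illumina lists the shares of coding sites were 48.6%, 15.1% and 23.9%, with 12.4% in neither. Those of all peaks were 31.7%, 27.0%, 29.1% and 12.3%. Peak calls on single libraries gave a similar picture: a called summit lay in 87.9% of coding sites in all 3 mESC libraries on BGI and in 61.6% in all 3 MEF libraries, while distal peaks had 68.1% and 68.7%.

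The share of reads that fell in exonic sites was larger in mESCs. On BGI, exonic sites held 4.47%, 4.49% and 4.40% of the reads in peaks in MEF libraries 1, 2 and 4, and 6.20%, 5.94% and 6.28% in mESC libraries 1, 3 and 5. The groups did not overlap, and the difference of 1.68 percentage points exceeded the SDs of 0.0493 and 0.178 (n = 3 each). The two-sided exact permutation test gave p = 0.1, the smallest that 3 against 3 allows. On Illumina the difference was 1.71 points. Coding sites accounted for most of it, with 2.47%, 2.49% and 2.46% in MEFs against 3.89%, 3.75% and 3.98% in mESCs on BGI, a ratio of 1.57. In 3′ UTR sites the ratio was 1.29, and in noncoding exons the difference was 0.0232 points with overlapping groups (exact permutation p = 0.4).

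**Figure D2:**
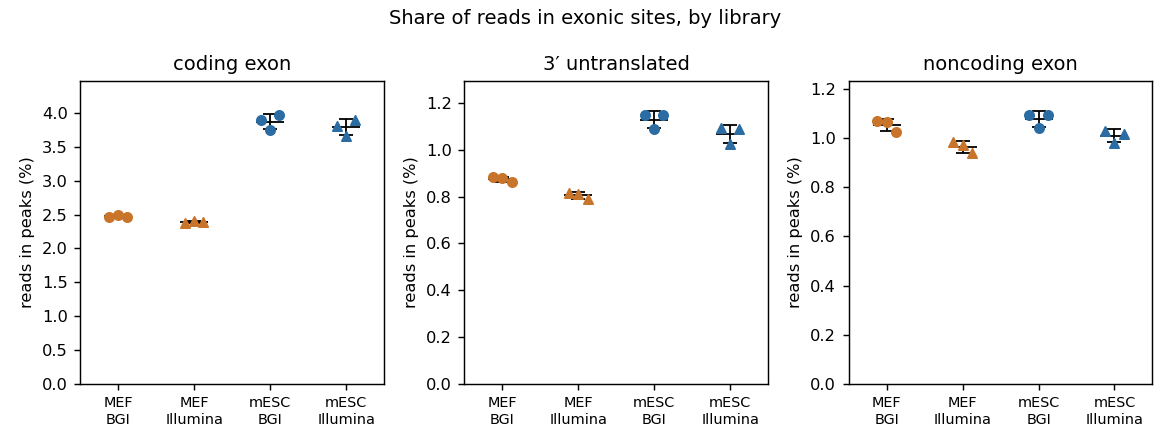
Reads in coding, 3′ untranslated and noncoding exons as a percent of all reads in peaks (y axis), 1 point per library (circles BGI, triangles Illumina), with mean and SD of the 3 libraries of each group. In coding exons every mESC library lies at 3.66% or more and every MEF library at 2.49% or less, whereas the groups come close together in noncoding exons.

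Coding sites differ from other distal peaks in base composition, with a median GC content of 54.6% against 48.4%. The direction of change varied with GC content. Among coding sites with less than 45% GC, 31.7% were higher in mESCs and 54.5% higher in MEFs. Among those with 55 to 60% GC, 75.6% were higher in mESCs and 12.1% higher in MEFs, and the median log2 fold change was 1.73. Distal peaks outside exons moved the same way but less, from 28.5% and 64.9% under 45% GC to 49.0% and 37.9% from 55 to 60%. At 65% GC and over the share higher in mESCs fell back in both, to 58.8% of coding sites and 34.0% of distal peaks. Within each of the 6 GC bins a larger share of coding sites than of distal peaks was higher in mESCs. Noncoding exons were at 46.9% and 31.5% from 55 to 60% GC, near distal peaks, but the 38 such sites from 60 to 65% GC were at 63.2% and 13.2%, nearer to coding sites (73.5% and 11.8%) than to distal peaks (47.1% and 33.3%). These shares are given without a test, and the part of GC content in the difference between classes was not tested beyond these bins.

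**Figure D3:**
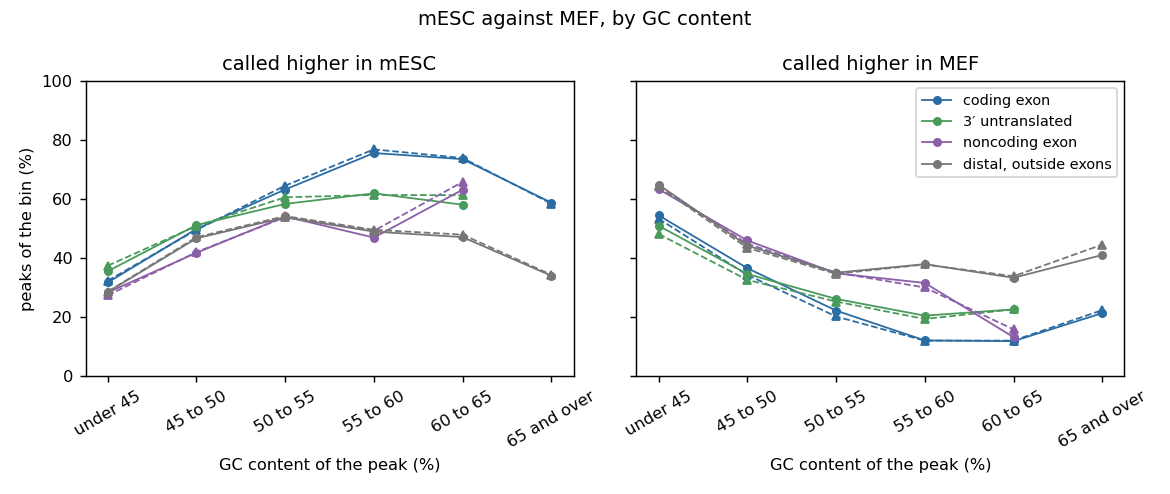
Percent of peaks in each bin of GC content (x axis) called higher in mESCs (left) and higher in MEFs (right) for coding, 3′ untranslated and noncoding exons and for distal peaks outside exons (solid lines BGI, dashed lines Illumina). Bins with fewer than 20 peaks are not drawn. The coding line peaks at 75.6% in the bin from 55 to 60% GC, where distal peaks stand at 49.0%.

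The shift grew with the coding share of a peak. Where coding sequence filled under 20% of the peak, 53.4% of 1312 sites were higher in mESCs and 30.9% higher in MEFs. Where it filled at least 80%, 73.5% of 543 sites were higher in mESCs and 14.0% higher in MEFs. Of the 909 sites in exons of 1000 bp or more, 67.3% were higher in mESCs. By place in the transcript, 61.8% of 2870 internal-exon sites and 64.7% of 1051 last-exon sites were higher in mESCs, as were 27 of 50 sites in first exons and 36 of 51 in single-exon transcripts. By level, the median log2 fold change was 2.43 at a mean of 2 to 4 CPM, 1.42 at 4 to 8 CPM, 0.49 at 8 to 16 CPM and 0.07 at 16 CPM and over. Distal peaks had medians of -0.48, -0.05, -0.13 and -0.16 in these bins, and their quartiles narrowed as well, from -3.53 and 2.96 to -1.31 and 1.25. Coding sites 2 to 5 kb from a TSS were 67.8% higher and 18.4% lower in mESCs. For the 65 coding sites more than 50 kb away, 43.1% were higher and 50.8% lower. Distal peaks outside exons went the same way, with 50.1% higher and 38.2% lower at 2 to 5 kb and 33.7% and 60.7% beyond 50 kb. At the edges of the rule, 49.4% of exonic peaks over 500 and up to 1000 bp from a TSS, just outside, and 53.0% of those over 1000 and up to 1500 bp away, just inside, were higher in mESCs. Of the 273 exonic sites with 1 to 25 exon bases, 45.8% were higher.

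Many individual coding sites were open in one cell type and nearly closed in the other. The lowest p was at Mast1, which encodes a microtubule-associated kinase, at chr8:84915232-84915733 in exon 24 of 26. It measured 0.785, 1.09 and 0.846 CPM in MEF libraries 1, 2 and 4 on BGI and 62.2, 65.1 and 60.7 CPM in mESC libraries 1, 3 and 5, a log2 fold change of 6.04 ± 0.15 (SE) on BGI and 6.94 ± 0.15 on Illumina. Every mESC sample was thus far above every MEF sample. The Def8 site (chr8:123453846-123454347, exon 5 of 11) rose from 0.646, 0.795 and 0.597 CPM to 48.4, 47.2 and 50.6 CPM, or 6.08 ± 0.16. At Npcd (chr15:79792394-79792895, exon 7 of 9) the MEF values were 0.554, 0.596 and 0.548 CPM and the mESC values 32.7, 35.2 and 36.0 CPM, or 5.85 ± 0.17. Both sites were near the limit of detection in MEFs. Ildr1, a receptor of tricellular junctions, had a site over exon 2 of 8 (chr16:36707876-36708377) with 0.831, 0.795 and 0.697 CPM in MEFs and 36.8, 48.9 and 43.1 CPM in mESCs (5.71 ± 0.18). Zscan22, a zinc finger gene, had one over exon 2 of 3 (chr7:12903466-12903967) that was also open in MEFs, at 3.37, 4.62 and 3.93 CPM, and reached 65.4, 57.3 and 59.0 CPM in mESCs (3.86 ± 0.13). For these 5 sites the adjusted p of edgeR's quasi-likelihood test lay between 2.65e-14 and 1.09e-13.

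The 5 coding sites higher in MEFs with the lowest p were almost closed in mESCs. Nuak1, an AMPK-related kinase gene, held a site over exon 2 of 7 (chr10:84409211-84409712) with 31.5, 29.3 and 29.2 CPM in MEFs and 1.07, 1.06 and 0.994 CPM in mESCs, a log2 fold change of -4.90 ± 0.17. Tln2 encodes a talin, which ties integrins to actin, and its site in exon 55 of 59 (chr9:67229021-67229522) lay wholly in exons, 126 bases of it coding, with 34.3, 33.4 and 39.9 CPM against 1.89, 1.77 and 1.43 CPM (-4.46 ± 0.16). Eif3h encodes a subunit of a translation initiation factor, and its site over exon 3 of 8 (chr15:51798703-51799204) fell from 36.1, 39.6 and 31.3 CPM in MEFs to 1.13, 1.18 and 1.18 CPM in mESCs (-4.99 ± 0.17). In each of the 3, the lowest MEF sample was far above the highest mESC sample. Adamts16, a secreted metalloprotease gene, had 22.1, 19.7 and 21.9 CPM in MEFs and 0.126, 0.296 and 0.248 CPM in mESCs over exon 10 of 23 (chr13:70779162-70779663, -6.58 ± 0.25). The Col27a1 site (chr4:63291033-63291534), in a collagen gene, touched exon 25 of 61 by 12 bases only and measured 35.5, 33.2 and 39.8 CPM against 0.946, 1.06 and 1.37 CPM (-5.06 ± 0.17). The adjusted p of edgeR's quasi-likelihood test lay between 1.19e-13 and 4.82e-13 for these 5 sites.

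Among coding sites called on neither platform, those with the highest mean were in Clec11a, Syp and Lpar5. The Clec11a site, in the last exon of a secreted growth factor gene (chr7:44304894-44305395), was at 155, 162 and 151 CPM in MEFs and 147, 170 and 145 CPM in mESCs, with a log2 fold change of -0.08 ± 0.08. Syp, the gene of a synaptic vesicle protein, had 42.8, 45.8 and 43.4 CPM against 48.2, 58.9 and 50.1 CPM (0.19 ± 0.10). In Lpar5, a lysophosphatidic acid receptor gene, the site at chr6:125081785-125082286 lay wholly in the last exon, with 45.3, 46.0 and 42.6 CPM against 48.2, 43.0 and 39.0 CPM (-0.11 ± 0.10). The groups overlapped at Clec11a and Lpar5, and the 3 adjusted p of edgeR's quasi-likelihood test on BGI were 0.364, 0.0816 and 0.304. Syp was called under several alternatives (0.23 with DESeq2, adjusted p = 0.0143), so its standing as not called depends on the fit.

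**Figure D4:**
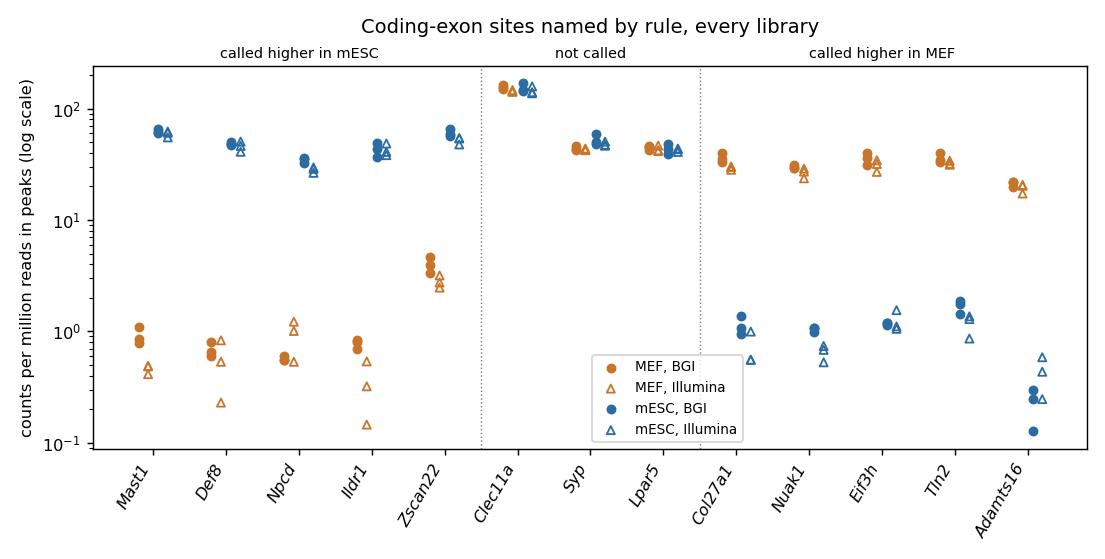
Counts per 1000000 reads in peaks (y axis, log scale) of 13 named coding sites (x axis) in every library: orange MEF, blue mESC, filled circles BGI, open triangles Illumina. At the 5 sites on the left all mESC points lie above all MEF points, at the 5 on the right below them, and the 3 in the middle, led by Clec11a with 145 to 170 CPM on BGI, lie close together.

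Single untranslated sites also differed strongly, although the class medians were smaller than that of coding sites. In 3′ UTRs, Mettl27 (chr5:134941792-134942293) measured 1.06, 1.34 and 1.69 CPM in MEFs and 40.6, 37.4 and 42.2 CPM in mESCs, a log2 fold change of 4.81 ± 0.16. Its neighbour on the other strand is Cldn4, which encodes a tight-junction claudin, and that site (chr5:134945189-134945690) measured 0.462, 0.994 and 0.946 CPM against 31.6, 33.2 and 35.8 CPM (5.32 ± 0.20). Both lie wholly in exons. Fkbp4, the gene of a chaperone-associated immunophilin, had a log2 fold change of 4.55 ± 0.18. Higher in MEFs were Lrrc15 (33.5, 28.2 and 32.4 CPM against 0.883, 0.473 and 0.435 CPM, -5.77 ± 0.21) and Vgll4, which encodes a cofactor of TEAD factors (42.4, 45.1 and 42.4 CPM against 4.60, 4.49 and 3.42 CPM, -3.44 ± 0.13). The zinc transporter gene Slc39a13 fell by 4.13 on the log2 scale. No sample of one cell type reached the range of the other at these sites. In 5′ UTRs the sites with the lowest p were Zswim1 at 4.73 ± 0.22, Zfp260 at 3.75 ± 0.27 and the kinase gene Fgr at 2.85 ± 0.21 for mESCs. For MEFs they were Zbtb20 at -3.43 ± 0.25, Pag1 at -3.39 ± 0.27 and Desi2 at -5.00 ± 0.41. At Desi2 the mESC values were 0.504, 0.355 and 0 CPM, so its fitted value depends on the prior count.

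In noncoding exons 416 of 1324 sites (31.4%) belonged to lincRNAs, 412 (31.1%) to noncoding transcripts of protein-coding genes and 191 (14.4%) to antisense genes. The sites with the lowest p each way were as follows. AC122818.3 (chr17:87471643-87472144) measured 0.508, 0.398 and 0.697 CPM in MEFs and 40.2, 41.0 and 42.7 CPM in mESCs, a log2 fold change of 6.19 ± 0.17. Gm48189 rose by 5.65 ± 0.18 and a noncoding transcript of the dystrobrevin gene Dtnb by 4.86 ± 0.16. Higher in MEFs were a noncoding transcript of the ubiquitin ligase gene Nedd4l (38.8, 39.96 and 39.5 CPM against 0.946, 0.591 and 1.12 CPM, -5.54 ± 0.17), C230099D08Rik at -5.56 ± 0.20 and Gm47152 at -4.16 ± 0.14.

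Coding sites were grouped by the known roles of their genes, and the groups did not all have the same direction. Beside each count stands the background of all coding sites, 62.6% higher and 23.2% lower in mESCs on BGI. Genes of the pluripotency network held 22 coding sites, with 17 more open and 3 less open in mESCs (median log2 fold change 2.76). With untranslated and noncoding exons, 25 of 30 were higher and 3 lower, beside 56.8% and 29.2% of exonic sites of every class. Etv5, an ETS factor gene, had 0.415, 0.596 and 1.10 CPM in MEFs and 15.2, 13.8 and 14.1 CPM in mESCs (4.29 ± 0.26), and an exon of a noncoding transcript of Gdf3, a TGF-beta family ligand gene, rose by 5.27 ± 0.26. The members that went the other way included Jarid2, a cofactor of the Polycomb complex, where MEF libraries had 11.7, 12.8 and 20.3 CPM and mESC libraries 2.14, 1.48 and 1.24 CPM (-3.26 ± 0.26). The reprogramming factor gene Klf4 was also lower, at -0.55 ± 0.15 in exon 3 of 5.

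Genes of the mesenchymal matrix and of fibroblast identity went the opposite way, with 13 coding sites higher and 25 lower of 45 (median -0.93). The elastic-fibre gene Fbln2 had 33.5, 33.4 and 26.1 CPM in MEFs and 1.20, 0.710 and 1.30 CPM in mESCs (-4.92 ± 0.20). Against the direction of the group, a site in the endocytic receptor gene Lrp1 measured 1.52, 1.59 and 1.59 CPM in MEFs and 14.2, 13.4 and 12.6 CPM in mESCs (3.02 ± 0.20), and a site in the protease inhibitor gene Timp3 rose by 3.05 ± 0.23. Collagen genes, which overlap that list, had 7 coding sites higher and 22 lower of 32 (median -3.13). Col15a1, with an AP-1 and a TEAD match, fell by 4.54 on the log2 scale, whereas Col5a3 rose by 3.90 ± 0.33 and Col6a5 by 3.75 ± 0.29. Thus a list named for a fibroblast role also held sites that were almost closed in MEFs.

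Clustered protocadherins, cell-adhesion genes with large single exons, had 21 of 21 coding sites higher in mESCs (median 3.54). Pcdhb18 measured 0.739, 0.895 and 0.747 CPM in MEFs and 12.7, 13.5 and 11.4 CPM in mESCs (3.91 ± 0.23), and Pcdhb14 rose by 3.46 ± 0.21. A 3′ UTR site of Pcdhga1 was lower in mESCs, at -1.19 ± 0.18. Genes of C2H2 zinc finger proteins, many of which repress retroelements, had 66 coding sites higher and 11 lower of 83 (median 2.87). In 3′ UTRs, Zfp809 rose by 5.24 ± 0.23 and Zfp474 fell by 4.75 on the log2 scale. Both families hold similar copies that can share reads, and the authors kept reads of mapping quality 10 or more.

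Developmental transcription factor genes had 46 coding sites higher and 3 lower of 53, at a smaller median of 1.09. Foxn1, the thymic epithelial factor gene, measured 1.52, 1.49 and 1.79 CPM in MEFs and 15.4, 14.8 and 17.6 CPM in mESCs (3.25 ± 0.19). The list, made by gene names, also took noncoding genes such as Sox1ot, which rose by 3.44 ± 0.25, and Emx2os, which fell by 3.83 on the log2 scale, and a 3′ UTR site of the homeobox gene Meis1 stood at -3.79 ± 0.30. Epigenetic writers, erasers and remodellers had 34 coding sites higher and 13 lower of 53 (64.2% and 24.5%, median 1.39), which is close to the background of all coding sites. The remodeller gene Chd2 rose by 3.64 ± 0.18 and the methyltransferase gene Setd1b, touched by 3 exon bases, by 4.28 ± 0.22. The histone deacetylase gene Hdac9 and the methyltransferase gene Kmt2a were at -5.31 ± 0.27 and -5.32 ± 0.27. Kmt2a had 19.8, 15.6 and 14.4 CPM in MEFs and 0.252, 0.591 and 0.435 CPM in mESCs.

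The smaller lists, counted over exonic sites of every class (56.8% higher and 29.2% lower in mESCs), were mixed. In the AP-1 and TEAD axis 7 of 18 exonic sites were higher and 8 lower in mESCs. The TEAD gene Tead1 rose by 3.0 ± 0.12 and a noncoding exon of the TEAD coactivator gene Yap1 by 3.65 ± 0.28, while Tead3 stood at -1.41 ± 0.12 and the YAP paralogue Wwtr1 at -3.27 ± 0.31, with 15.1, 12.5 and 7.02 CPM in MEFs and 1.39, 1.42 and 0.932 CPM in mESCs. Imprinted genes had 5 of 16 higher, among them the zinc finger gene Plagl1 (3.02 ± 0.29) and Sgce (3.17 ± 0.25), and 10 lower, among them the receptor gene Igf2r (-4.62 ± 0.30) and the noncoding gene Rian (-5.19 ± 0.37). Hox genes had 2 of 7 higher, Hoxc11 at 0.85 ± 0.16 and Hoxb6 at 0.65 ± 0.20, and 4 lower, led by Hoxc9 at -2.04 ± 0.23 and Hoxb8 at -0.94 ± 0.17. Lineage markers of other cell types had 9 of 13 higher and 3 lower. These included Foxa1 (2.55 ± 0.19) and Krt14 (1.59 ± 0.19) on the higher side and Csf1r (-2.23 ± 0.24) and Kdr (-3.26 ± 0.40) on the lower.

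Several genes carried many coding sites. Of the 3139 genes with a coding site, 2481 had 1 and 511 had 2, and 147 had 3 or more. In 39 of those 147 all sites were higher in mESCs, in 6 all were lower, and in 57 sites of the same gene were called in both directions. With 62.6% of all coding sites higher and 23.2% lower, nothing particular to these genes is read from the counts. Sptbn4, which encodes a neuronal spectrin, had the most, with 10 sites between exons 8 and 34 of 36. All 10 were higher in mESCs without overlap of the groups, by 0.34 ± 0.10 to 4.16 ± 0.36 on the log2 scale. The site with the largest change rose from 0.649 ± 0.527 to 12.5 ± 1.61 CPM (SD, n = 3) and that with the smallest, over exon 33, from 34.8 ± 2.59 to 46.1 ± 3.29 CPM. Myh14, a nonmuscle myosin gene, had 7 sites, all higher, from 2.39 ± 0.20 to 4.19 ± 0.18.

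In Col1a1, the main fibrillar collagen gene of fibroblasts, 6 sites between exons 12 and 43 of 51 were all lower in mESCs. Their MEF means lay between 10.1 and 14.0 CPM and their mESC means between 0.410 and 4.88 CPM, with log2 fold changes of -4.81 ± 0.34 to -1.59 ± 0.20. The sites of Ryr1, a muscle calcium channel gene, were not uniform. Of 9, 6 were higher, the largest at 4.35 ± 0.21 in exon 39 of 109, 1 was lower at -1.02 ± 0.15 in exon 89, and those in exons 66 and 94 were at 0.01 ± 0.11 and 0.18 ± 0.18. The dynein gene Dnah17 had 4 of 6 sites higher, up to 2.43 ± 0.32, and 1 lower at -0.72 ± 0.18. Col1a1 and Dnah17 were taken by symbol from a tie with Dst, Lrp1, Syne1 and Unc13a, which also had 6 coding sites each. These were called in both directions, with 5 higher and 1 lower, 3 and 2, 1 and 5, and 4 and 2. Sites of a gene share a locus and are not replicates of each other.

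Coding sites were set beside the promoter peak of their gene, which was higher in mESCs at 917 and lower at 1474 (41.7%) of the 3533 coding sites that had one. Of the 2518 coding sites higher in mESCs, 2240 had a promoter peak for the same gene. That promoter was also higher at 641 of them (28.6%), lower at 840 (37.5%) and not called at 759 (33.9%), near the shares of all coding sites. Of the 934 coding sites higher in MEFs, 795 had a promoter peak, which was higher in MEFs at 412 (51.8%) and higher in mESCs at 149 (18.7%). Across 3533 coding sites, Spearman's rho between the log2 fold changes of site and promoter was 0.12. For 3′ UTR sites it was 0.18 and for noncoding exons 0.22. These values run across sites of the same libraries and describe them only.

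Motif letters differed with the direction of change, in coding sites much as in peaks at large. TGANTCA, the AP-1 letters shown for Nuak1 and Adamts16, were found in 37.5% of coding sites higher in MEFs, 13.0% of those higher in mESCs and 14.6% of those not called. Over all peaks, these shares were 35.6%, 18.6% and 14.0% (25.2% in all), so the split went the same way as in the background. In distal peaks outside exons they were 44.5%, 21.2% and 22.8%, each above the share of coding sites. In 3′ UTR sites the shares were 41.8%, 16.3% and 11.7%, and in noncoding exons 42.9%, 23.2% and 14.2%. TEAD letters were in 16.1% of MEF and 6.68% of mESC coding sites (all peaks 14.9% and 9.37%), and RUNX letters in 12.1% and 7.63% (all peaks 13.2% and 9.54%). KLF letters were in 9.38% of coding sites higher in mESCs and 3.53% of those higher in MEFs (all peaks 9.45% and 4.86%). The other pluripotency letters were scarcer in mESC coding sites than in mESC peaks at large. ESRRB letters, as at Npcd and Etv5, were in 1.51% of coding sites higher in mESCs and 0.642% of those higher in MEFs, against 2.46% and 0.631% of all peaks. The octamer, as at Ildr1, was in 2.07% and 1.28%, against 4.80% and 2.21% of all peaks. SOX letters were found at 5.52% and 5.03% (all peaks 7.40% and 6.64%). The CTCF letters of Lpar5 were in 28.9% of coding sites that were not called, 11.7% of those higher in mESCs and 11.3% of those higher in MEFs. Over all peaks the shares were 17.4%, 9.52% and 6.95%, and in distal peaks outside exons 29.1%, 9.86% and 7.14%. Among 3′ UTR sites that were not called the CTCF share was 39.4%. Calls and letters were counted over the same peaks, a match is no evidence of binding, and no test was run on these shares.

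The second question was whether the instrument changes the reading of exonic sites. Compared without regard to library number, few sites differed in MEFs, with 3 higher and 52 lower on BGI of 6436 exonic sites tested (all peaks 0.0391% and 3.95%). In mESCs 3 were higher and 36 lower of 6297 (all peaks 0.0216% and 2.03%). Without MEF library 1 or 2, or without mESC library 1 or 5, edgeR's quasi-likelihood test called none of the exonic sites, with 184, 163, 279 and 171 sites at an unadjusted p under 0.05. DESeq2 on all libraries called 2.76% of exonic sites in MEFs and 2.05% in mESCs. The share of all peaks called by DESeq2 is not given here, so these shares stand without a background. Both instruments read the same libraries, which a block for each library takes into account. With the block, 288 exonic sites were higher and 306 lower on BGI in MEFs (all peaks 4.92% and 12.9%), and 212 and 367 in mESCs (all peaks 3.47% and 12.1%). Coding sites leaned to the lower side, with 141 higher and 260 lower of 3972 in MEFs and 114 higher and 320 lower of 3912 in mESCs. The 3′ UTR sites leaned to the higher side, with 72 higher and 16 lower in MEFs and 45 and 21 in mESCs, as did noncoding exons with 71 and 26 and with 51 and 21. Distal peaks outside exons had the same lean, with 3256 higher and 713 lower in MEFs and 2123 and 770 in mESCs. A GC offset was then added to the same fit. It was taken from these same counts, so it removes a GC trend by construction. With it the lean of coding sites turned round, to 89 higher and 54 lower in MEFs and 76 and 54 in mESCs. Exonic sites were then 142 higher and 89 lower in MEFs (all peaks 3.53% and 4.29%) and 113 and 84 in mESCs (all peaks 2.56% and 3.03%).

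These directions followed GC content. With the block, the median log2 difference (BGI over Illumina) of coding sites in MEFs was 0.12 below 45% GC and -0.34 at 65% GC and over, and in mESCs it was 0.11 and -0.30. At 65% GC and over, 161 of 291 coding sites in MEFs were lower on BGI and 0 higher, and in mESCs 188 were lower and 1 higher. Of the distal peaks outside exons in that bin, 199 of 304 were lower and 5 higher in MEFs and 182 of 312 lower and 8 higher in mESCs (65.5% and 58.3% lower, against 55.3% and 64.6% of coding sites). The sites with the lowest p in the fit with the block were as follows. In MEFs, those lower on BGI were in Nrg2, a neuregulin gene (-0.90 ± 0.06, 76.7% GC), Ano8 (-0.88, 78.3% GC) and the tripartite-motif gene Trim14 (-0.70, 75.3% GC), which was not called at -0.12 with the GC offset. In mESCs they included Dact3 (-1.0, 79.9% GC), Rncr4 (-0.45, 66.7% GC) and a 3′ UTR site of the leucyl-tRNA synthetase gene Lars2 at 51.0% GC (-0.27 ± 0.02), with 462, 485 and 413 CPM on BGI against 534, 547 and 499 CPM on Illumina. Higher on BGI in both cell types were Acvrl1, an endothelial receptor gene (0.61 ± 0.08 in MEFs and 0.48 in mESCs, 63.5% GC), and A330035P11Rik (0.33 and 0.32, 56.4% GC). Bcat2, an aminotransferase gene, was higher on BGI by 0.25 in MEFs (54.8% GC) and Gm13415 by 0.71 in mESCs (55.2% GC). Without the block, 10 of these 12 sites and comparisons were called, and all 10 lost the call without library 1 or with a GC offset, a fit that called 0 exonic sites in either cell type (175 in MEFs and 152 in mESCs at an unadjusted p under 0.05 by edgeR). With both the block and the GC offset, all 12 except Trim14 were called.

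**Figure D5:**
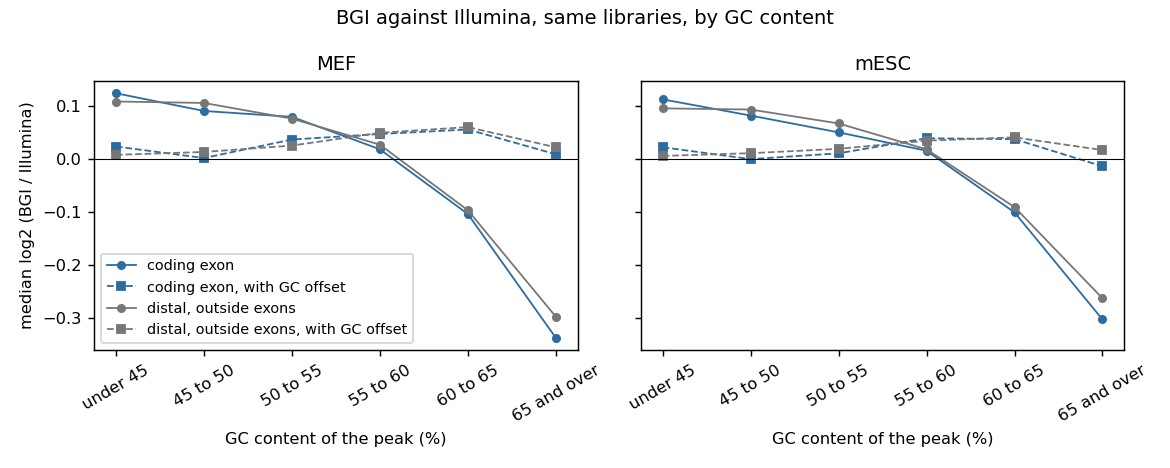
Median log2 of BGI over Illumina (y axis) by GC content of the peak (x axis) for coding exons (blue) and distal peaks outside exons (grey), from the fit with library as a block (solid) and with an added GC offset (dashed), in MEFs and mESCs. The solid coding line falls from 0.12 to -0.34 in MEFs and from 0.11 to -0.30 in mESCs, close to the distal line. The offset was taken from these same counts, so the dashed lines have the GC trend removed by construction.

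As a share of reads, exonic sites held more on BGI than on Illumina in 6 of 6 libraries, by 0.229 percentage points on average, of which coding sites made up 0.0842 points. Distal peaks outside exons also held more on BGI in each library, by 3.29 points, and promoter peaks less, with a difference of -3.52 points, so the rise was shared by peaks away from promoters. An exact permutation of the signs of these 6 differences gave p = 0.03125, the smallest possible. The set was built from BGI-derived peaks, and 815 exonic sites (12.3%) matched neither of the authors' Illumina lists (all peaks 12.3%). The part of that choice of peaks was not tested, and the p does not separate it from the instrument. The gap between cell types was larger, at 1.40 points for coding sites on each platform. Whether the platform changed the difference between the cell types was tested as an interaction with library as a block. It was called at 4 of the 6642 exonic sites, beside 0.386% of all peaks, and at 0 of them with RLE size factors, where 439 had an unadjusted p under 0.05.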

How the data were processed

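Per the labels and the study's methods, the authors trimmed Illumina reads from 150 to 100 bp, aligned all reads with Bowtie2 to mouse build GRCm38, dropped mitochondrial and duplicate reads, kept a mapping quality of 10 or more and thinned the rest to a fixed depth per cell type, greater in MEFs. They called peaks per sample with MACS2 (p 0.01), extended summits by 250 bp each side, kept peaks with a score per 1000000 of at least 3 in at least 2 samples, and deposited raw read counts per peak. The per-sample peak lists that the authors deposited hold a score, a fold enrichment ratio and -log10 p and q values. The summit positions and the fold enrichment were used here, the latter for a check of columns only. Consensus peak positions were used as lists. The consensus set was built on BGI-derived data from both cell types.

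Peaks were annotated with GENCODE M21 (the study used a later release). Sequences came from GRCm38, and some windows are not reported here. CPM is the count per 1000000 reads in peaks. Tests used edgeR 4.0.16 in R 4.3.3 (TMM factors, filterByExpr, quasi-likelihood F test, two-sided, Benjamini-Hochberg over all peaks tested, called under 0.05). The study used DESeq2, run here as an alternative (1.42.0). Values after ± are SE for log2 fold changes and SD (n = 3) for levels. Read shares were tested by exact permutation. Overlaps used bedtools 2.31.1.

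Count columns without a platform name were taken as Illumina, since the rest are named BGI. As a check, the BGI-over-unnamed ratio of counts of each library followed the BGI-over-Illumina ratio of fold enrichment in the per-sample peak lists (Spearman's rho 0.757 to 0.799 over peaks). No pair of samples held identical counts. Replicates were described by the authors as biological, without their origin. Half-libraries were split between platforms, so library number pairs the platforms. Deviations from group means correlated at 0.382 to 0.579 (MEF) and 0.366 to 0.535 (mESC) for equal numbers, and at -0.396 to -0.00948 and -0.352 to -0.136 for unequal ones. On simulated data, a log2 change of 1 given to 200 of 91354 peaks was called at 63.0% (BGI) and 66.0% (Illumina) of them. In the data 84.1% (BGI) and 84.6% (Illumina) of all peaks were called, which makes the Benjamini-Hochberg cutoff less strict. The simulated shares therefore do not give the power in the data.

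Named sites were, among those called in the same direction on both platforms, the 5 coding sites and the 3 sites of each other class with the lowest BGI p each way, 1 per gene. Added to them were the 3 highest coding sites not called, 2 per gene list each way and the 5 genes with the most coding sites. Ties between those genes were broken by symbol. Per cell type, the 3 sites each way with the lowest p between platforms in the block fit were added too. The sites, lists and motifs were chosen with earlier results of these data known. The interaction and the block fits on other peak sets or without a library were chosen after seeing the data.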

Additional observations from a re-analysis of the deposited data

Results flagged for a closer look

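At 4 exonic sites the difference between mESCs and MEFs was not the same on the 2 platforms, by a test of the interaction itself. The test was edgeR's quasi-likelihood test with library as a block (Benjamini-Hochberg over 91354 peaks, chosen after seeing the data). It called 0.0602% of exonic sites, below the 353 of all peaks (0.386%). The values are the interaction term of that joint fit, mESC over MEF on BGI against the same on Illumina on the log2 scale. Its median over all peaks was 0.11, and it lies about that far above the difference of the fold changes fitted on each platform alone. The largest was in the coding exon site of Col6a5, a collagen gene, at -1.79 ± 0.45 (adjusted p = 0.0431), with fold changes of 3.75 on BGI and 5.66 on Illumina. Its MEF libraries 1, 2 and 4 measured 0.739, 0.547 and 0.946 CPM on BGI and 0.183, 0.0976 and 0.291 CPM on Illumina, while the mESC means were 10.6 and 10.4 CPM. The platforms thus differed in the samples where the site was nearly closed. At the Med12l coding site (Mediator subunit, 1.41 ± 0.33, adjusted p = 0.0324, fold changes of -3.60 and -4.89) the same held in the other cell type, with 1.20, 1.48 and 1.12 CPM on BGI and 0.496, 0.644 and 0.431 CPM on Illumina in mESCs.

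The other 2 sites have 70.5% GC. At the coding site of Skor1, a corepressor gene, the interaction was 0.74 ± 0.18 (adjusted p = 0.0431, fold changes of 1.28 and 0.68), with MEF means of 3.31 and 5.88 CPM and mESC means of 8.44 and 9.75 CPM on BGI and Illumina. At the noncoding exon of Gm49427 it was 0.36 ± 0.09 (adjusted p = 0.0324, fold changes of 0.35 and 0.12, whose gap is smaller than the term), with MEF means of 22.6 and 30.9 CPM and mESC means of 30.1 and 34.9 CPM. At all 4 sites the sign of the difference between the cell types was the same on both platforms, although at Gm49427 it was small on Illumina, with an SE of 0.09.

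These calls depended on the fit. With RLE size factors, which moved the median interaction of all peaks from 0.11 to -0.01, none of the 6642 exonic sites was called by edgeR, and 439 had an unadjusted p under 0.05, against 635 in the fit with TMM. Without the block none was called and 109 had such a p. None was called without MEF library 1 or 2 or without mESC library 1, 3 or 5, and 438 to 593 had such a p. Without MEF library 4, 5 were called. Over all peaks, 0 were called with RLE size factors and 0 without the block. Without MEF library 1, 2 or 4 the count over all peaks was 1, 51 or 340. Without mESC library 1, 3 or 5 it was 25, 0 or 42. No other tool was run for the interaction. The part of GC content and of low counts was not tested.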

How the results depend on the processing

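For mESC against MEF, the shares of exonic, coding and untranslated sites called on each platform kept their direction and stayed within 1.5 times their value under all 18 alternatives each: DESeq2, RLE factors, scaling to thinned depth, other filters, a log2 fold change of at least 1, other distances and exon overlaps, the Illumina peak set and each library left out. The differences in read share kept their direction in all 11 alternatives each. Scaling to thinned depth moved the median log2 fold change of exonic sites to 0.96 (BGI) and 0.95 (Illumina), of coding sites to 1.29 and 1.28, and of all peaks to 0.06 and 0.05. Of the sites named between cell types, only those not called changed sign: Clec11a to 0.0612 (BGI) and 0.0847 (Illumina) and Lpar5 to 0.0310 and 0.0378 under that scaling, and Clec11a on Illumina to 0.00554 at a mean count of at least 50 and to 0.0126 without mESC library 5 (-0.117 to 0.0126 when 1 library was left out). Some sites not called gained a call: Clec11a without mESC library 3 (-0.131 on BGI and -0.117 on Illumina), and Syp on BGI with DESeq2, RLE size factors, a mean count of at least 50, scaling to thinned depth and without mESC library 1 (0.215 to 0.331) and on Illumina under that scaling (0.233). No paired analysis was possible because MEF and mESC libraries came from separate cultures, and a shared library number pairs nothing between the cell types.

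For BGI against Illumina the calls depended on the fit. In MEFs 0.855% of exonic sites were called (all peaks 3.99%), and 9.07% with the replicate block (all peaks 17.8%). The share was 3.53% with the block and a GC offset and 0% with the offset alone (175 sites at an unadjusted p under 0.05 by edgeR). It was 2.76% with DESeq2, 5.05% with DESeq2 and the block, and 1.40% where at least 50% of the peak lay in exons. With the block it was 10.8% on the Illumina peak set and 22.0% on the MEF set of both platforms. Leaving out 1 library gave 0% to 1.47%, and 5.56%, 5.90% and 7.51% with the block. In mESCs the share was 0.619% (all peaks 2.05%), and 9.08% with the replicate block (all peaks 15.6%). It was 3.09% with the block and a GC offset and 0% with the offset alone (152 sites at an unadjusted p under 0.05 by edgeR). The share was 2.05% with DESeq2 and 3.33% with DESeq2 and the block. Where at least 50% of the peak lay in exons it was 1.06%, and on the mESC set of both platforms 0.987%. With the block it was 10.8% on the Illumina set and 12.8% on the mESC set of both platforms. Leaving out 1 library gave 0% to 0.475%, and 5.43%, 6.43% and 6.96% with the block. For settings other than the main fit and the block, shares of all peaks are not given in this paragraph. Of 12 named sites and comparisons between platforms, 10 lost their call in at least 1 alternative and 0 changed sign. All 10 lost it with the GC offset alone and without library 1, 6 without library 2, 4 without library 5, 1 without library 3, 1 without library 4, 2 with RLE size factors, 1 with DESeq2 and 1 with no filter on low counts, and Trim14 also with the block and a GC offset. Lars2 and A330035P11Rik in mESCs were called only in fits with the block, except that Lars2 was also called without library 3. The causes were not tested.

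Depth limits the weakest sites. Each sample held 15860985 to 21831840 reads in peaks, so that a site at 1 CPM rests on few reads and counting error adds to the spread between libraries. Intervals cover these samples only.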
